A study of Mus musculus with 8 samples.

Results

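The promoters of long non-coding RNA (lncRNA) genes were examined for RNA:DNA hybrids in mouse embryonic fibroblasts (MEFs). Genes of 5 non-coding types (lincRNA, antisense, processed transcript, bidirectional promoter lncRNA and sense intronic) were taken from the GENCODE M21 annotation of mm10. A promoter was a window reaching 1 kb to either side of the 5′-most start of the gene. Of 10120 such genes, 2095 were left out because their window touched the 1 kb around the start of a protein-coding transcript, and 8025 windows remained out of the 55450 gene windows of the annotation. The choice used the annotation alone and no measured value. Most of these genes are little studied, and 7627 of the 8025 carry predicted-gene, Riken or clone names. Windows of neighbouring genes can overlap, so the 8025 windows covered 7837 separate stretches of sequence.

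An R-loop forms when an RNA pairs with its DNA template and the other DNA strand is left single-stranded. R-loops are well known at the starts of GC-rich, CpG-island genes, where a G-rich non-template strand favours them and can fold into G-quadruplexes (G4s). Long non-coding RNAs are transcribed by RNA polymerase II like messenger RNAs, but their promoters are usually poorer in CpG and fire less often. Some lncRNAs scaffold nuclear bodies, some carry microRNAs or small nucleolar RNAs in their transcripts, and some act on the gene beside them.

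The cells were *Rtel1* F/F;WT RNH1-GFP MEFs, a line with floxed alleles of *Rtel1*, a DNA helicase that opens G4s and telomeric loops, and with RNaseH1 of wild-type (WT) sequence joined to GFP, which doxycycline switches on and which cuts the RNA of RNA:DNA hybrids. Cells infected with the GFP adenovirus kept *Rtel1* (GFP mock and GFP DOX), and cells infected with the Cre-GFP adenovirus were meant to lose it (Cre mock and Cre DOX). Both DOX groups received doxycycline at 2 µg/ml for 48 h, starting 48 h after infection, whereas the mock groups did not, and all 4 groups carried the inducible transgene. RNA:DNA hybrids were pulled down with the S9.6 antibody from restriction-digested DNA (DRIP-seq), with 3 parallel immunoprecipitations pooled into 1 library per condition. Age of the embryos, sex and clone of the line were not given in the sources used here. With 1 library per condition, no difference between conditions has a replicate check or a test, and the intervals on shares below are exact (Clopper-Pearson) 95% intervals that cover counting error only. The lists hold peaks and no RNA levels, so neither the deletion of *Rtel1* nor the fibroblast identity of the cells could be checked from them.

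The peak lists of GFP cells held 87613 peaks (mock) and 60219 (DOX), and those of Cre cells 91097 (mock) and 105081 (DOX), with median widths of 295, 351, 343 and 513 bp. Wherever 4 values follow each other below, they keep this order of lists. Read depth is unknown from such lists. Each peak has a score, which is 10 times the −log10 q-value of the peak caller, and scores were not normalised between libraries. Peaks over lncRNA promoters numbered 587, 376, 720 and 499, between 0.475% and 0.790% of a list.

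The sequence beneath some of these peaks is shown first, for 7 promoters that the results return to and that held a predicted G4 beneath a peak. They were picked after their values were seen. Each line gives the reference sequence (GRCm38.p6) on the strand of the lncRNA, 5′ to 3′. The capitals mark a predicted G4 by the G4Hunter score (25-base windows with an absolute score of 1.5 or more), namely the one under peaks of the most lists and, among those, with the strongest score. G-rich capitals mean that the G-rich strand is the one that reads like the RNA, and C-rich capitals mean that it is the template strand.
Mir17hg: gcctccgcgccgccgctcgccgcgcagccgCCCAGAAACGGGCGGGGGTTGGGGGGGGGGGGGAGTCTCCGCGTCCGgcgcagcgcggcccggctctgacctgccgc
6720427I07Rik: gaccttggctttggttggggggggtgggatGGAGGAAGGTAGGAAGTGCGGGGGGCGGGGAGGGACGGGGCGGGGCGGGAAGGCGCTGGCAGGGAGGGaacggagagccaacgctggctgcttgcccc
Neat1: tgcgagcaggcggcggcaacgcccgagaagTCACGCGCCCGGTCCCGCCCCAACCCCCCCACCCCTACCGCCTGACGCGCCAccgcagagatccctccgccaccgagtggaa
Dleu2: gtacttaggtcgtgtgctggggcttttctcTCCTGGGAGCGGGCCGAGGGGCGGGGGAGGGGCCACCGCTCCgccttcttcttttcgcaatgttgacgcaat
Malat1: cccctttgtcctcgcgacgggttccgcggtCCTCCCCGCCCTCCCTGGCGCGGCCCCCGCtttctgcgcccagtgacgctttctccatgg
2900097C17Rik: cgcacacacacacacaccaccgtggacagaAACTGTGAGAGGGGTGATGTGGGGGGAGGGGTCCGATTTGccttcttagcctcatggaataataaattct
Dnm3os: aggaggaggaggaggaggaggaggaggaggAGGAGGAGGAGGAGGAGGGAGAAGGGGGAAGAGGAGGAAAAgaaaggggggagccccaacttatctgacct

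*Mir17hg* (chr14:115042121-115042227, + strand) and *6720427I07Rik* (chr13:48545740-48545867, − strand) held G-rich stretches on the RNA-like strand, with G4Hunter scores of 3.20 and 2.96. Their centres lay at −705 and 696 bases from the start, where negative positions are upstream. All 4 lists had a peak over both stretches. In *Neat1* (chr19:5845901-5846012, − strand) the stretch beneath the peaks of all 4 lists was C-rich, with a score of −2.80 and its centre at −479. The *Dleu2* stretch (chr14:61682360-61682461, − strand) lay 38 bases upstream of the start, scored 2.28 and was covered in 3 lists. In *Malat1* (chr19:5803495-5803584, − strand) a C-rich stretch 868 bases upstream scored −1.84 and was covered in 1 list. The *2900097C17Rik* stretch (chr2:156393371-156393470, − strand) scored 2.40, was centred at −442 and was covered in 1 list. In *Dnm3os* (chr1:162217056-162217156, + strand) a run of GGA repeats scored 1.84, was centred at −517 and was covered in 2 lists. Except in *6720427I07Rik*, the stretches thus lay upstream of the annotated start, where the strand names refer to the direction of the gene and not to its own transcript.

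Few lncRNA promoters held a peak. A peak of any score lay over 544 of the 8025 windows in GFP mock (6.78%, interval 6.24 to 7.35), 340 in GFP DOX (4.24%, 3.81 to 4.70), 646 in Cre mock (8.05%, 7.46 to 8.67) and 450 in Cre DOX (5.61%, 5.11 to 6.13). The corresponding shares over the windows of all genes were 15.2%, 11.9%, 17.7% and 13.9%, so lncRNA promoters lay below the background in every list. Single protein-coding promoters with a GC content under 50% were close to them in 3 lists, with 6.26%, 3.97% and 7.31% before Cre DOX. In Cre DOX, the GC-poor protein-coding promoters stood higher, at 7.11% (6.58 to 7.67), and the intervals did not overlap. GC-rich single protein-coding promoters held a peak far more often, in 36.7%, 30.4%, 42.2% and 28.6% of windows. Cre mock had the highest share of lncRNA windows and GFP DOX the lowest. With the same number of top peaks taken from each list, Cre mock was still highest (427 windows), but Cre DOX (253) fell below GFP DOX (340). Whether this order exceeds the spread between libraries is not known.

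**Figure D1:**
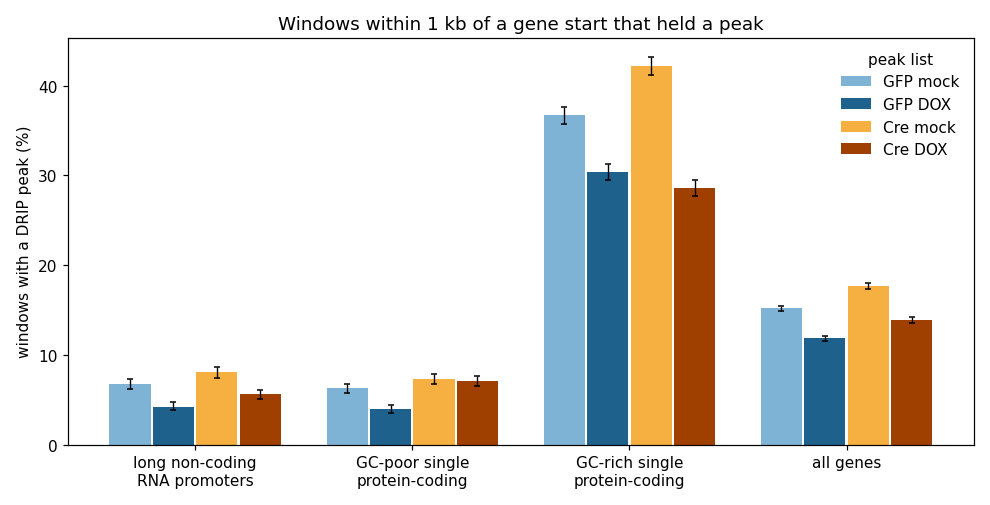
Share of windows (%, vertical axis) within 1 kb of a gene start that held a DRIP peak, for 4 gene classes (horizontal axis) and the 4 peak lists (colours); bars are shares of windows in 1 library each and error bars are exact 95% intervals for counting error. The lncRNA promoters, at 4.24% to 8.05%, sit beside the GC-poor protein-coding promoters and below the GC-rich ones, at 28.6% to 42.2%.

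Top-scoring peaks were rarer still. A top-decile peak, by score within its own list, lay over 67 (0.835%), 53 (0.660%), 94 (1.17%) and 60 (0.748%) lncRNA windows, against 2.39%, 1.98%, 3.2% and 1.84% of all gene windows. The peaks that were present resembled the others of their list in strength. Their median scores were 18, 17, 19 and 17, against 18, 17, 19 and 18 over whole lists. They differed in sequence, with a median GC of 51.6%, 51.4%, 51.2% and 48.0% against 46.0%, 42.1%, 44.7% and 41.6% over whole lists. Peaks in lncRNA promoters were mostly repeat-masked in 20.6% to 35.7% of cases, against 54.1% to 75.2% over whole lists. A predicted G4 lay within 41.2% (37.2 to 45.3), 43.6% (38.5 to 48.8), 44.0% (40.4 to 47.7) and 41.9% (37.5 to 46.4) of them, against 24.2%, 20.4%, 24.9% and 23.0% of all peaks.

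The share of windows with a peak climbed with the GC content of the window. Among lncRNA promoters with under 40% GC, 2.13%, 1.28%, 2.13% and 3.06% held a peak. These shares rose in every list to 30.6%, 24.4%, 40.2% and 21.5% of the 209 windows between 55% and 60% GC. Of the 43 windows with 60% GC or more, 19, 13, 24 and 17 held a peak. At equal GC, the lncRNA promoters remained below single protein-coding promoters in all 24 combinations of 6 GC classes and 4 lists. Between 50% and 55% GC, the lncRNA shares were 12.2% (10.3 to 14.2), 10.6% (8.86 to 12.5), 16.1% (14.0 to 18.4) and 8.40% (6.86 to 10.2), and the protein-coding shares were 18.9%, 15.3%, 25.6% and 15.9%. These intervals did not overlap in any list. Below 45% GC the differences were small, for example 3.80% (3.12 to 4.57) against 4.59% (3.80 to 5.48) in GFP mock between 40% and 45% GC, and the intervals overlapped in every list except Cre DOX.

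**Figure D2:**
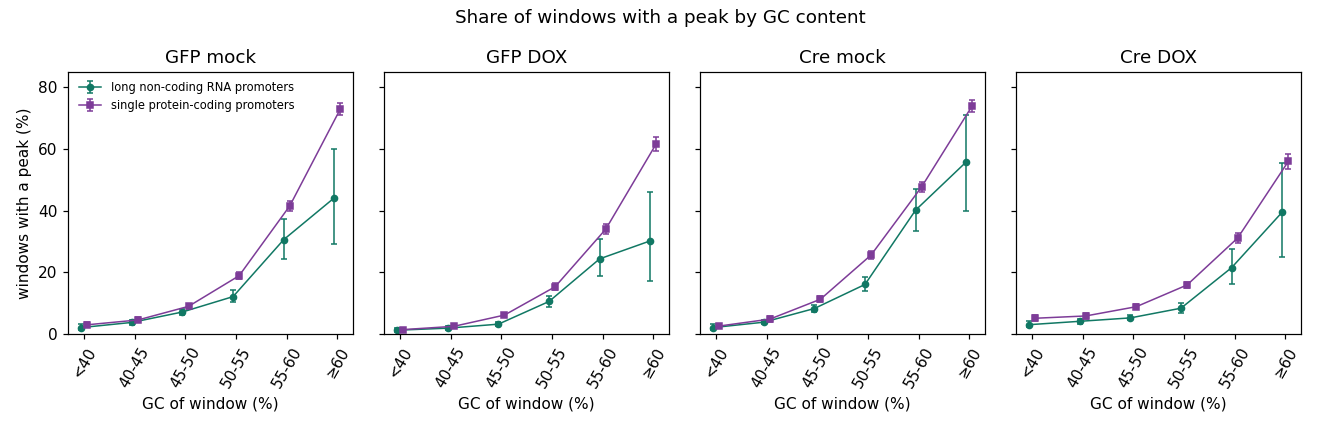
Share of windows with a peak (%, vertical axis) against the GC content of the window (horizontal axis, 6 classes) in each peak list, for lncRNA promoters (circles) and single protein-coding promoters (squares); error bars are exact 95% intervals. Both classes climb with GC, and the lncRNA promoters stay lower, with 44.2% against 73.0% in GFP mock at 60% GC or more.

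CpG-rich windows were rare among lncRNA promoters that stand apart from protein-coding starts. CpG islands were not called. GC and CpG were averaged over the whole window, so the count does not measure how rare islands are. The same rule marked 4976 single protein-coding promoters and left 13763 unmarked. Only 132 of the 8025 windows were CpG-rich (GC of at least 50% and an observed-over-expected CpG ratio of at least 0.6). A peak lay over 51 of these 132 in GFP mock (38.6%, 30.3 to 47.5), 36 in GFP DOX (27.3%, 19.9 to 35.7), 56 in Cre mock (42.4%, 33.9 to 51.3) and 38 in Cre DOX (28.8%, 21.2 to 37.3). The other 7893 windows gave 6.25%, 3.85%, 7.47% and 5.22%. CpG-rich single protein-coding promoters lay above the CpG-rich lncRNA promoters, at 49.3%, 41.9%, 56.3% and 40.03%, with intervals apart in all 4 lists.

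Peaks did not gather at the starts of most lncRNA genes. At the start itself, 1.51% of the lncRNA genes were covered by a peak in GFP mock, which was 1.25 times the mean cover 3 to 5 kb away. The same ratio was 1.10, 1.197 and 0.770 in the remaining lists. GC-rich protein-coding starts stood at 6.77, 4.69, 4.33 and 3.55 times their flanks, and GC-poor protein-coding starts at 0.793, 0.994, 1.05 and 0.560 times. The CpG-rich lncRNA starts had a clear maximum. They were covered in 15.9%, 13.6%, 19.7% and 15.9% of cases, or 5.69, 4.53, 4.96 and 4.43 times their flanks. The rule for members keeps protein-coding starts out of the 2 kb around a start but not out of the flanks 3 to 5 kb away. The ratio over all members is thus not free of peaks at such starts. Over 20 kb from any protein-coding start, the lncRNA ratios were 1.49, 1.26, 1.42 and 0.684. Cover at 1 position is not a count of peaks, and neighbouring positions share peaks.

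**Figure D3:**
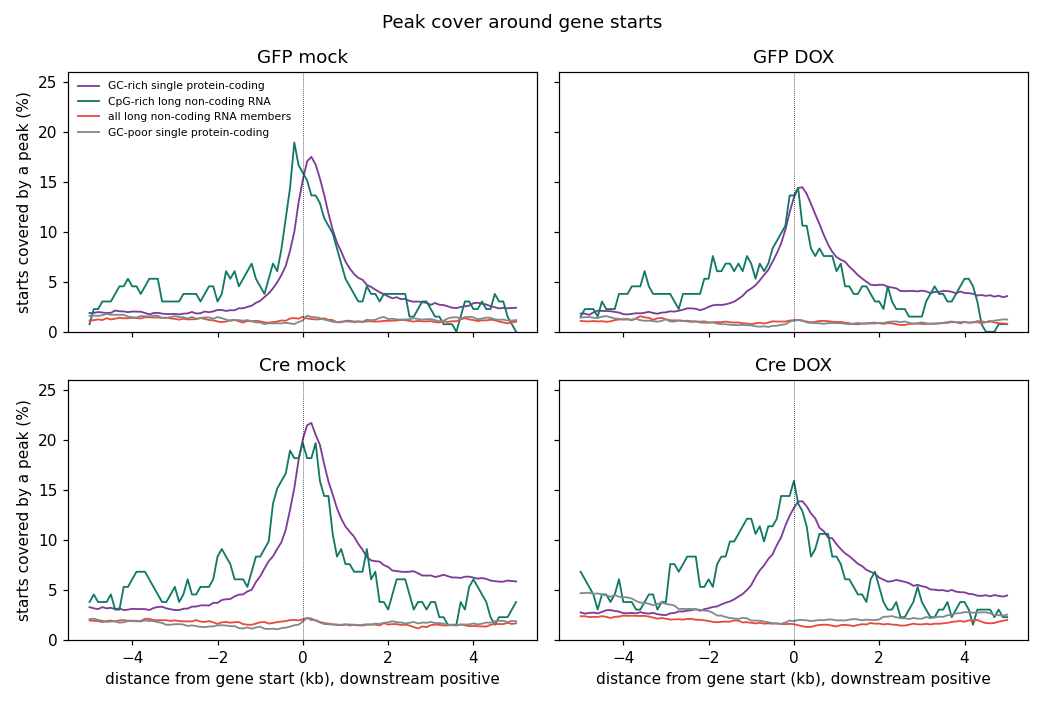
Percentage of genes whose position at a given distance from the start (horizontal axis, kb, downstream positive, steps of 100 bp) is covered by a peak (vertical axis), in the 4 peak lists. GC-rich protein-coding genes and the 132 CpG-rich lncRNA genes have their maximum near the start in GFP mock, 17.5% at 200 bp downstream and 18.9% at 200 bp upstream. The line of all lncRNA members is low there (1.51% at the start), and GC-poor protein-coding genes dip in Cre DOX from 4.67% at 5 kb upstream to 1.87% at the start.

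Within the window, the centres of peaks fell about evenly on both sides of the start in 3 lists and more often upstream in Cre DOX. Downstream centres made up 49.6% (45.5 to 53.7) in GFP mock, 53.5% (48.3 to 58.6) in GFP DOX, 49.9% (46.1 to 53.6) in Cre mock and 44.3% (39.9 to 48.8) in Cre DOX. The start base itself was covered by 20.4%, 24.2%, 22.6% and 25.1% of the peaks. Between 33.7% and 42.2% of the peaks overlapped the body of a protein-coding gene, so for these the hybrid may hold RNA of either gene. DRIP peaks have no strand, and the RNA partner was not identified.

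The kind of gene and its neighbourhood went with the share of windows that held a peak. Among the 5401 lincRNA windows the shares were 5.91%, 3.33%, 6.39% and 5.18%. The 1873 antisense windows stood at 8.22%, 6.19%, 11.7% and 6.51%. The 456 processed transcripts, which include many host genes of small RNAs, stood at 11.6%, 8.11%, 13.6% and 7.02%, and the 294 sense intronic genes at 6.12%, 2.38%, 6.46% and 5.44%. Only 1 of the 190 genes typed as bidirectional promoter lncRNA was a member, and it held no peak. Starts 2 to 5 kb from a protein-coding start held a peak in 12.8%, 9.20%, 17.2% and 11.3% of cases. This fell to 4.45%, 2.30%, 4.33% and 3.85% over 100 kb away. Median GC fell along with it, from 47.2% to 43.1%, so distance and GC cannot be read apart from these shares alone. On the Y chromosome, 551 windows held 1, 0, 0 and 0 peaks, where 0 of 551 allows a share of up to 0.667%, and each whole list had only 15 to 20 peaks there.

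Restriction digestion precedes the pulldown, so the fragment that carries the start is part of the measurement. The median fragment was 1729 bp for the 1199 lncRNA windows with a peak in any list and 1027 bp for the 6826 without. Shares were lowest on short fragments, at 4.0%, 2.03%, 4.20% and 3.39% under 0.5 kb and a little lower still, at 3.53%, 1.97%, 4.12% and 2.93%, from 0.5 to 1 kb. They then climbed to 6.81%, 3.38%, 7.03% and 4.51% from 1 to 2 kb and to 12.1%, 9.22%, 16.8% and 11.8% on fragments of 2 to 5 kb. On the 59 fragments over 5 kb they reached 47.5%, 42.4%, 50.8% and 37.3%. Longer fragments also gave higher shares within a narrow band of GC. Between 45% and 50% GC, fragments under 1 kb gave 5.06%, 2.14%, 6.43% and 2.63%, and those of 2 kb or more gave 10.8%, 6.25%, 14.1% and 11.7%. Single protein-coding promoters of that GC on fragments of 2 kb or more held a peak in 15.9%, 12.04%, 20.3% and 16.4% of windows, again above the lncRNA promoters, with intervals that overlapped in Cre DOX only. On shorter fragments of that GC the gap was smaller. Under 1 kb the protein-coding shares were 6.19%, 4.17%, 8.08% and 6.12%. From 1 to 2 kb the lncRNA shares were 7.04%, 2.41%, 6.53% and 3.82% and the protein-coding ones 7.39%, 4.46%, 8.79% and 6.90%. In both of these classes the intervals overlapped in every list except Cre DOX. The part that fragment length plays in the other shares was not tested.

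The order of the lists changed with the repeat content of the window. Of the 1140 lncRNA windows with under 10% repeat-masked sequence, 7.46%, 5.88%, 12.02% and 5.44% held a peak. Of the 1091 windows that were masked over 50% or more of their length, 5.50% (4.22 to 7.02), 3.76% (2.71 to 5.06), 4.67% (3.50 to 6.10) and 8.16% (6.60 to 9.94) did. Cre mock therefore stood highest in windows with little repeat and Cre DOX in those masked over 50% or more. In the latter the intervals of Cre DOX and GFP mock overlapped. Between 30% and 50% masked, the shares were 7.73%, 3.25%, 8.60% and 6.94%, and Cre DOX lay below both mock lists. The windows called in Cre DOX alone had a median GC of 46.0% and a median masked share of 30.5%, and a predicted G4 lay in 75.7% (68.0 to 82.2) of them. For the windows of Cre mock alone these values were 48.5%, 19.3% and 88.8% (84.4 to 92.2). Cre DOX also had the most peaks, the widest ones and the most masked list, with 75.2% of its peaks mostly masked, and their part in this order was not tested.

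Predicted G4s were more common in windows with a peak, at 84.2% (82.0 to 86.2) of the 1199 against 68.4% (67.2 to 69.5) of the 6826 without. In the 1 kb downstream of the start, a G4 on the RNA-like strand was predicted in 45.1% of windows with a peak and 29.9% without, and a G4 on the template strand in 39.4% and 25.5%. Read the other way, a Cre mock peak lay over 9.74% (8.98 to 10.5) of windows with a predicted G4 and 3.96% (3.21 to 4.83) of those without. Between 45% and 50% GC these shares were 8.75% (7.59 to 10.01) and 6.28% (4.27 to 8.84), and between 50% and 55% GC 16.5% (14.4 to 18.9) and 8.96% (3.36 to 18.5), so that within a band of GC the intervals overlapped. The median GC skew downstream of the start, which is positive where G exceeds C on the RNA-like strand, was 0.03 in windows with a peak and 0.02 in those without.

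The lists shared few lncRNA promoters. Of the 1199 windows with a peak in any list (14.9%, against 27.8% of all genes), 746 (62.2%) had it in 1 list only and 97 (8.09%) in all 4. Among all genes with a peak, 43.3% were in 1 list and 18.95% in all 4. As a share of all windows, 97 is 1.21%, against a background of 5.27%. Cre mock alone held 276 windows (3.44%, background 4.25%), GFP mock alone 227 (2.83%, background 3.5%), Cre DOX alone 152 (1.89%, background 2.94%) and GFP DOX alone 91 (1.13%, background 1.35%). A further 69 windows were in both mock lists only (0.860%, background 1.70%), 48 in both Cre lists only (0.598%, background 1.32%), 16 in both DOX lists only (0.199%, background 0.368%) and 16 in both GFP lists only (0.199%, background 0.606%). The 97 windows of all 4 lists had a median GC of 52.1%, a median fragment of 2327 bp and 20 CpG-rich members (20.6%). The 276 of Cre mock alone had a median GC of 48.5% and 12 CpG-rich members (4.35%).

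**Figure D4:**
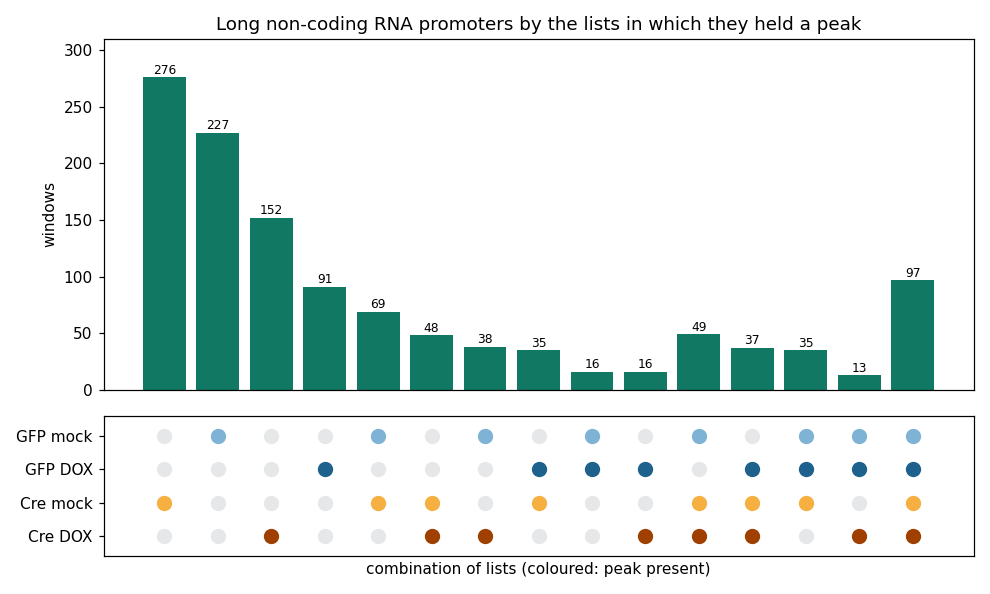
Number of lncRNA promoters (vertical axis) for each of the 15 combinations of peak lists (dots below: coloured where the list had a peak). Single lists hold 276, 227, 152 and 91 windows of their own, against 97 shared by all 4 lists.

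The design asks how deletion of *Rtel1* changes RNA:DNA hybrids and how overexpressed RNaseH1 alters that. Of the 544 GFP mock windows, 383 had no peak in GFP DOX (70.4%, 66.4 to 74.2, background 48.7%). Of the 646 Cre mock windows, 415 had none in Cre DOX (64.2%, 60.4 to 67.9, background 47.8%). In the same comparison of mock with DOX, GC-poor protein-coding windows gave 67.8% and 58.8%, and GC-rich ones 42.3% and 47.3%. The reverse direction was also common. Of the 340 GFP DOX windows, 179 had no peak in GFP mock (52.6%, background 34.4%), and of the 450 Cre DOX windows, 219 had none in Cre mock (48.7%, background 33.5%). Between the genotypes, 396 of the 646 Cre mock windows had no peak in GFP mock (61.3%, background 44.9%), and 294 of the 544 GFP mock windows none in Cre mock (54.0%, background 35.9%). The comparisons share lists, and a peak below the calling threshold in a library counts as absent.

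Absence went with weak peaks in both genotypes. GFP mock windows whose best score was 10 to 15 had no GFP DOX peak in 82.8% of cases, against 54.4% at scores of 30 or more. For Cre mock and Cre DOX the shares were 78.5% and 46.6%. At scores of 30 or more, single protein-coding windows without a DOX peak made up 29.1% (25.9 to 32.4) in GFP cells and 33.7% (30.9 to 36.6) in Cre cells. The intervals of the lncRNA windows, 43.6 to 65.0 and 37.4 to 56.0, lay above these, but this comparison was not matched for GC. Windows of GFP mock with 45% to 50% GC lacked a GFP DOX peak in 79.1% of cases, and those of 55% or more in 50.6%. Single protein-coding windows gave 68.1% and 36.1% in these classes, so they fell with GC as well. From 50% to 55% GC, lncRNA windows gave 61.9% and protein-coding windows 61.8%. Their intervals overlapped below 55% GC and were apart at 55% or more (39.4 to 61.8 against 34.3 to 37.9). In Cre cells absence did not fall steadily with GC. Of the Cre mock windows under 45% GC, 54.9% lacked a Cre DOX peak. This share was 73.3% from 45% to 50%, 66.8% from 50% to 55% and 52.8% at 55% or more. Single protein-coding windows of Cre mock gave 47.8%, 63.0%, 61.4% and 41.7%, so this course was not particular to lncRNA promoters. In each of these GC classes the intervals of lncRNA and protein-coding windows overlapped. Cre mock windows absent from GFP mock had no Cre DOX peak in 311 of 396 cases (78.5%), and those shared with GFP mock in 104 of 250 (41.6%). These sets also differed in strength, with median Cre mock scores of 18 and 22. Over all genes these shares were 66.5% and 32.6%, so the contrast was not particular to lncRNA promoters. The same held with the genotypes exchanged. GFP mock windows absent from Cre mock had no GFP DOX peak in 265 of 294 cases (90.1%), and shared ones in 118 of 250 (47.2%), against 80.8% and 30.8% over all genes. The median GFP mock scores of these lncRNA windows were 17 and 21. The part of peak strength in these contrasts was not tested. When only top-decile peaks were used, the order of the genotypes turned, with 70.1% of GFP mock and 75.5% of Cre mock windows lacking a DOX peak.

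The highest scores belonged to a few windows present in all 4 lists. *Gm42418* and *AY036118*, overlapping genes on chromosome 17 in a stretch that resembles ribosomal RNA sequence, shared 1 peak that scored 1697 and 1615 in GFP cells without and with doxycycline, and 1738 and 1445 in Cre cells. *AC166748.2* on chromosome 19 scored 1129, 1124, 1259 and 1086, with a peak of 181 bp in GFP mock at chr19:8252178-8252358 in its intron. *Gm49472* scored 264, 143, 211 and 130. The *1700092C02Rik* window scored 119, 68, 560 and 320, with a peak of about the same place in each list, such as chr8:77624166-77625244 in Cre mock, over an exon. Fold enrichment did not follow these scores. In GFP mock it was 7.35 at *Gm42418*, 6.18 at *AC166748.2*, 10.5 at *Gm49472* and 8.23 at *1700092C02Rik*. These windows were called in every condition, doxycycline included. Whether reads from other copies of the ribosomal sequence, or of the sequence in the other windows, were placed here was not tested.

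Further down, *Gm40645*, an antisense gene, scored 108, 57, 87 and 24. *Gm14286* scored 129, 40 and 57 and had no Cre DOX peak. *Rab10os*, which lies opposite *Rab10*, scored 59, 38 and 119 and had no Cre DOX peak either. *6720427I07Rik*, a CpG-rich promoter on chromosome 13 with 61.6% GC, was nearly even across the lists at 42, 43, 50 and 47.

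Of 212 members on 8 lists of known or named lncRNAs, 63 (29.7%) had a peak in any list. This was above the 14.9% of all lncRNA members and close to the background of 27.8% over all gene windows. These lists were drawn up with earlier results of the same data known and overlap in part, and no test was made. Their windows were also richer in GC, with a median of 48.0% against 45.0% in the other members, and lay on longer restriction fragments, with a median of 1287 bp against 1096 bp, and 12 of the 212 were CpG-rich. Of 15 nuclear and chromatin-associated RNAs, 7 had a peak (46.7%, background 27.8%). *Malat1*, an abundant RNA of nuclear speckles, scored 18, 38, 63 and 47. Its peak was 406 bp wide in GFP mock (chr19:5802048-5802453) and spread over the whole gene in the other lists, for example chr19:5794326-5803655 in Cre mock. *Neat1*, the scaffold of paraspeckles, scored 24, 29, 62 and 57, and its peaks also covered the divergent neighbour *Frmd8os*. *Malat1* and *Neat1* thus had their lowest score in GFP mock and their highest in Cre mock. Neither lost its peak with doxycycline, and scores are not comparable in size between libraries. *Lncpint*, *Pvt1*, *Ftx* and *2900097C17Rik* made up the weaker members of the list with *Dleu2*. The X-inactivation RNAs *Xist*, *Tsix* and *Jpx*, the X-linked *Firre* and the nuclear *Miat* had no peak in any list.

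MicroRNA host genes held a peak in 9 of 14 members (background 27.8%), and 4 of them had one in all 4 lists (background 5.27%). *Mir17hg*, the host of a growth-promoting microRNA cluster, scored 36, 27, 39 and 33. *Mir22hg* scored 23, 27, 21 and 31. *Dleu2*, whose microRNAs restrain the cell cycle, scored 23, 19, 20 and 11. The *Mir17hg* and *Dleu2* promoters carry G-rich stretches printed above. *Carmn*, a host gene of microRNAs of smooth muscle, scored 14, 29, 42 and 22. *Dnm3os*, which is read antisense within *Dnm3* and hosts microRNAs of the mesenchyme, scored 44 in GFP DOX and 51 in Cre mock and had no peak in GFP mock or Cre DOX. Its peaks were 125 bp in GFP DOX (chr1:162217006-162217130) and 136 bp in Cre mock, over the GGA repeats. *Mir9-3hg* (22) and *Mir670hg* (18) were called in Cre mock only, and *Mir155hg* (16) in GFP mock only.

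Host genes of small nucleolar RNAs carry these guide RNAs in their introns. Of 10 members, 4 held a peak (background 27.8%), while 7 further hosts, *Gas5* and *Zfas1* among them, were left out for a protein-coding start nearby. *Snhg17* scored 15, 17, 28 and 21. *Snhg12* was called in Cre mock (27) and Cre DOX (36) and in neither GFP list. These *Snhg12* peaks were centred 1244 and 1327 bases downstream of the start, beyond the edge of the window. *Epb41l4aos* had no GFP mock peak and scored 19, 24 and 42 in the other lists, from peaks centred 938, 1007 and 1368 bases downstream. The last of these overlapped a protein-coding exon, and the Cre DOX peak over the start scored 17. *Snhg8* scored 19 in Cre DOX alone. Of the 10 members, 4 thus had a peak in Cre DOX (background 13.9%) and 1 in GFP mock (background 15.2%).

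RNAs tied to DNA damage and growth control held a peak in 6 of 6 members (background 27.8%), again mostly weak, and 3 further genes of the list were left out for a protein-coding start nearby. *Trp53cor1*, a p53 target beside *Cdkn1a*, scored 16 in Cre mock and 11 in Cre DOX, at different places of the window, and had no GFP peak. *2900097C17Rik*, the mouse *Norad*, an RNA that sequesters Pumilio proteins and guards chromosome stability, scored 19 in Cre mock and 25 in Cre DOX and also had no GFP peak. *Lockd*, downstream of *Cdkn1b*, scored 19 in Cre mock only. *Lncpint*, another p53 target, scored 21 in GFP DOX and 12 in Cre mock, again at different places, and *Pvt1*, the neighbour of *Myc*, 14 in GFP mock only. With *Neat1*, 5 of the 6 had a Cre mock peak (background 17.7%) and 2 a GFP mock peak (background 15.2%), in single libraries with unequal numbers of peaks.

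Imprinted long RNAs held a peak in 3 of 10 members, close to the background of 27.8%. *Nespas*, antisense at the *Gnas* locus, scored 16 in Cre mock, *Nctc1* 16 in GFP mock and *H19*, a maternally expressed growth suppressor, 17 in Cre DOX. Each was called in 1 list only. *Meg3*, *Rian*, *Mirg*, *Kcnq1ot1*, *Airn*, *Peg13* and *Snhg14* had none. Of 6 Hox cluster RNAs, 2 held a peak (33.3%, background 27.8%). *Hoxb5os* scored 12 in GFP DOX and 18 and 19 in the Cre lists, and *Hoxb3os* scored 22 in GFP mock, while *Hotair* had no peak. Of 9 RNAs of mesenchyme and development, 5 held a peak (55.6%, background 27.8%). *Six3os1* (24, GFP mock) and *Dlx6os1* (14, Cre mock) were called besides *Dnm3os*, *H19* and *Carmn*.

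**Figure D5:**
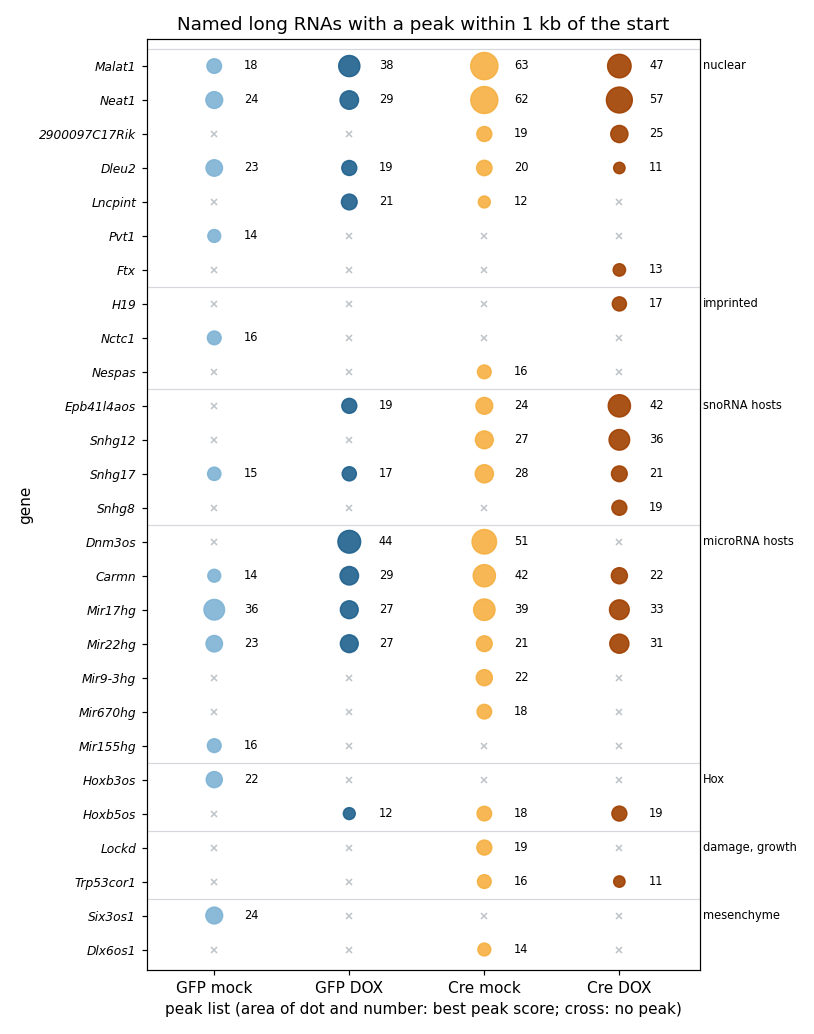
Best peak score (number, and area of the dot) in each of the 4 peak lists (horizontal axis) for members of 7 lists of known lncRNAs that held a peak (vertical axis, grouped by list); a cross means no peak. *Malat1*, *Neat1*, *Dleu2*, *Snhg17*, *Carmn*, *Mir17hg* and *Mir22hg* have a dot in every list, and most other genes in 1 or 2.

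Genes named as the opposite strand of a protein-coding gene formed the widest list, with 164 members, of which 42 (25.6%) had a peak, near the background of 27.8%. Peaks lay over 19, 17, 26 and 15 of them in the separate lists (background 15.2%, 11.9%, 17.7% and 13.9%), and over 3 in all 4 (background 5.27%). These 3 were *Frmd8os*, *Itpr3os* (19, 21, 28 and 20) and *Unc45bos* (16, 12, 23 and 13). *Peak1os* scored 76 in GFP mock and 39 in Cre mock and had no peak with doxycycline, and was first by its lower score among windows of that pattern. *Snhg7os* had no GFP mock peak and scored 25, 45 and 50 in the other lists. These scores came from peaks centred upstream, beyond the edge of the window, and none of these peaks reached the start. Separate peaks over the *Snhg7os* start scored 19 in GFP DOX and 28 in Cre mock. *Lrrc75aos2* also had no GFP mock peak and scored 19, 35 and 31, with its highest score in Cre mock. *Foxo6os* scored 44 in GFP mock and 17 in GFP DOX and had no Cre peak.

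The windows of Cre mock alone were mostly of unstudied genes. The highest was a peak shared by the divergent pair *Gm34307* and *Gm34354* (score 66), a 136-bp peak at chr13:59145734-59145869 close to both starts. *Gm15606* (50), *AC122818.1* (46), *Gm43837* (43) and *Gm16105* (42) came next, and the first with other names were *Lyrm7os* (27), *Srrm4os* (22) and *Mir9-3hg* (22). GFP mock alone reached similar heights with *Gm31774* (55), *1810053B23Rik* (54) and *Gm12000* (49). The 69 windows of both mock lists only were led by *Peak1os*, *Gm45515* (35 and 61), *Gm15632* (63 and 33) and *D330037F02Rik* (37 and 32), with *Rncr4* at 27 and 38. The 48 of both Cre lists only were led by *Snhg12*, *Gm10143* (24 and 39) and *Gm42825* (31 and 24). The 16 of both DOX lists only were led by *Gm28268* on the X chromosome (25 and 37), and 54.1% of its window was repeat-masked. Both of its peaks were 100% masked and centred 1039 (GFP DOX) and 984 (Cre DOX) bases downstream.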

How the data were processed

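DRIP-seq was performed on 8 samples, 4 immunoprecipitates and 4 inputs; the inputs were not analysed here. Samples were grouped by virus and doxycycline as labelled. The authors aligned single-end reads to mm10 and called peaks per library with MACS2, release 1.2.1 of nf-core/chipseq. Whether inputs served as control is not given in the sources used here, so copy number may be only partly accounted for. The command the authors gave has a narrow-peak option, but the deposited files are in broad-peak format, so the calling mode behind widths and cover is uncertain. The authors deposited these peaks, each with a score (10 times the −log10 q-value, rounded down, in 99.9962% of peaks), a fold enrichment and −log10 p and q-values, which are not normalised between libraries. Depth is unknown from the lists, and a deeper library gives more peaks.

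Peaks of any score were overlapped by 1 bp with windows of 1 kb around gene starts (GENCODE M21). A protein-coding start was that of a transcript typed protein-coding. Single protein-coding promoters had no other gene's protein-coding start within 2 kb. G4Hunter used windows of 25 bases, a threshold of 1.5 and runs capped at 4. Fragments came from the 4946871 sites of 5 enzymes (EcoRI, HindIII, BsrGI, SspI, XbaI). Python 3.11.15, numpy 2.4.6, pandas 2.3.3 and scipy 1.17.1 were used, after tests on simulated data. Intervals are exact at 95% and cover counting error only. Of 11 alternative settings, 2 were chosen after seeing the data.

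Named windows were the members of 8 lists, the 5 windows with the highest lowest score per pattern of lists with the 3 highest that have other than clone names, and the 5 highest per peak list. The members and lists were chosen with earlier results of these data known.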

Additional observations from a re-analysis of the deposited data

Results flagged for a closer look

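A few windows moved in opposite directions with doxycycline in the 2 genotypes, and the difference was not tested because each condition had 1 library. A peak was present in GFP DOX and Cre mock only at 35 lncRNA promoters (0.436%, against 1.03% of all gene windows), so that the window gained a peak with doxycycline in GFP cells and lost one in Cre cells, not always at the same place. Among named genes these were *Dnm3os* (scores of 44 in GFP DOX and 51 in Cre mock), *Lncpint* (21 and 12) and *Rspo4os* (20 and 12). The peaks of the separate lists overlapped at *Dnm3os*, but lay apart in the windows of *Lncpint* and *Rspo4os*. The opposite pattern, a peak in GFP mock and Cre DOX only, was found at 38 windows (0.474%, against 0.913% of all gene windows), among them *Cep112os1* (17 in GFP mock and 14 in Cre DOX) and *Galnt6os* (17 and 14). At both of these genes the peaks overlapped.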

How the results depend on the processing

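The counts were recomputed under 11 alternatives, giving 77 values. Of these, 51 stayed close to the main value, a count within 1.5 times of it and a share within its 95% interval. In all 11, Cre mock held more lncRNA promoters than GFP mock, and each DOX list fewer than its mock list. With top-decile peaks, the windows in GFP mock, GFP DOX, Cre mock, Cre DOX and Cre mock only numbered 67, 53, 94, 60 and 50, and 75.5% of Cre mock windows lacked a Cre DOX peak. With a −log10 q of at least 2, they numbered 247, 123, 311, 180 and 156, and 76.1% of GFP mock and 72.7% of Cre mock windows lacked a DOX peak. With equal numbers of peaks, GFP mock, GFP DOX, Cre mock, Cre DOX and Cre mock only numbered 373, 340, 427, 253 and 181, so that Cre DOX fell below GFP DOX, and the losses were 65.7% in GFP and 70.96% in Cre cells. The loss was thus larger in GFP than in Cre cells under 9 of the 11 alternatives and smaller with top-decile peaks and with equal numbers. With lincRNA genes only, the counts were 319, 180, 345, 280 and 152. Windows of 2 kb gave 698 in Cre DOX, peaks at most 50% masked gave 295 there, and requiring at least 50% of the peak inside the window gave a loss of 70.97% in Cre cells. The cause of these changes was not tested, other than that stricter settings leave fewer peaks. No paired analysis was possible because each group has 1 sample. Depth is unknown, so an absent peak may be a weak one.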
